A study of Mus musculus with 9 samples.

Results

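Small nucleolar RNAs (snoRNAs) were measured in LSK cells, the lineage-negative, Sca-1-positive and c-Kit-positive fraction of mouse bone marrow that holds the blood stem cells and early progenitors. The genes were chosen by symbol, Snord or Snora followed by a number, among array probesets that the platform annotation gives exactly 1 symbol, with the brightest probeset standing for a gene. That gave 62 snoRNA genes of 30142 named genes, 44 of the C/D box class (Snord) and 18 of the H/ACA box class (Snora). A further 49 snoRNA symbols stood only on probesets shared with other genes, among them Snord32a, Snord33 and Snord34 of Rpl13a, and were left out. The study compared mice without Abi1, the Abelson interactor that takes part in actin remodelling, with mice that kept it. KO animals were Abi1(-/-);Tg(Mx1-cre(+)) (n = 4) and WT animals were Abi1(fl/fl);Tg(Mx1-cre(-)) (n = 5). The Mx1 promoter drives Cre in cells that respond to interferon, all animals had 3 injections of poly(I:C) at 8 to 9 weeks of age, and only the KO animals carried Cre. Marrow was taken at 12 to 14 weeks, recombination was tested in it by PCR, and the replicates are separate mice with 1 Affymetrix array each.

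Most snoRNAs are cut from introns of host genes, many of which code for ribosomal proteins or translation factors. C/D box snoRNAs bind fibrillarin and guide methylation of ribose in ribosomal and spliceosomal RNA, and H/ACA box snoRNAs bind dyskerin and guide pseudouridylation. A few, such as U8 (Snord118), U13 (Snord13), U14 (Snord14) and U17 (Snora73), act in the cleavage or modification of the ribosomal RNA precursor, and snoRNA-guided modification has been linked to the activity of leukaemic stem cells. A probe inside an intron-encoded snoRNA also matches the unspliced host transcript, so the signals here do not separate mature snoRNA from precursor.

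Host gene starts are shown for the noncoding hosts that carry snoRNA pairs described below: Snhg3, around Snora73a and Snora73b, and 2410006H16Rik, around Snord49a and Snord49b. The first pair, near-identical copies whose probes may share signal, stayed in 1 ratio across the arrays and the second did not. Each sequence runs from 100 bases before to 50 after the RefSeq start, 5′ to 3′ on the gene's strand. The Snhg3 window is chr4:132353637-132353786 (minus strand, GRCm38.p6), and the 2410006H16Rik window is chr11:62602777-62602926 (plus strand, GRCm38.p6). Capitals mark matches to TATAAA or CCGGAAG, the latter read on the opposite strand here as CTTCCGG.
Snhg3: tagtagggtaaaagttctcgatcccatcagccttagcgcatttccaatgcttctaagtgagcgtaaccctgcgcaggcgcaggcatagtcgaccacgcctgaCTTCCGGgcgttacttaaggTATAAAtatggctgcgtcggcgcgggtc
2410006H16Rik: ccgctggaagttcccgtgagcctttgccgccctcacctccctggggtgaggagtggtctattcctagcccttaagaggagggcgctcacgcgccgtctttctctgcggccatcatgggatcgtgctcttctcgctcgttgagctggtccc
In the 300-base RefSeq windows, both strands searched, TATAAA was found at 7 of 37 host genes, CACGTG at 9 and CCGGAAG at 10. Over all 32851 promoter windows of that length the shares were 13.6%, 7.15% and 8.86%. The host counts are by gene, with 40 windows for the 37 genes, and these shares are by window. Both marked matches in the Snhg3 sequence lie after the RefSeq start. A match is a description of the letters and not of binding.

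Abi1 itself had mean log2 signals of 5.82 in KO (SD 0.22, n = 4) and 11.55 in WT (SD 0.06, n = 5), and the groups were far apart. Background was set in each array at percentile 95 of 1717 olfactory and vomeronasal receptor genes. It was a log2 signal of 5.64 in KO replicate 1 and 5.29 to 5.37 in the other arrays. Of 12 LSK marker genes, 10 were measured and all 10 lay above background, while Ly6a (Sca-1) had no probeset of its own. Averaged over the list in each array, they ran from 11.16 to 11.49 in KO and 11.32 to 11.66 in WT. Single LSK markers had means over all arrays from 6.82 (Procr) to 14.66 (Cd48). Averaged in the same way, the 6 mature myeloid markers ran from 6.0 to 9.03 in KO and 5.68 to 7.02 in WT. The 4 erythroid markers ran from 9.09 to 10.38 in KO and 6.17 to 10.55 in WT. Of these, Car1 was 6.38 in WT replicate 5 and 15.4 to 16.99 in the other arrays. The 4 megakaryocyte markers ran from 10.46 to 11.05 in KO and 8.43 to 10.77 in WT. T and B cell marker averages lay near background, at 4.94 to 5.14 in KO and 4.85 to 5.19 in WT. KO replicate 1 and WT replicate 5 stood apart from the other arrays, with median correlations across genes of 0.986 and 0.989 against 0.993 to 0.996. In these bulk samples, fewer cells of a type and less RNA per cell cannot be told apart.

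Nearly all of the snoRNAs gave a signal in LSK cells. Of the 62, 58 (93.5%) had a mean above background, 41 of 44 C/D box and 17 of 18 H/ACA box, against 53.2% of all named genes. The share was 37.7% among 893 other snoRNA genes of RefSeq, most of them known by a predicted-gene symbol, 45.7% among 600 microRNA genes and 59.6% among 914 small nuclear RNA genes. In all 9 arrays 52 of the snoRNAs were above background, and with percentile 90 or 99 as background the number with a mean above it was 59 or 52. Mean signals ran from 4.29 to 16.23, with medians of 8.79 for C/D box and 8.71 for H/ACA box genes. By level, 16 genes had a mean of 11 or more, 22 lay between 8 and 11, 20 between background and 8, and 4 at or below background. Signals of different probesets depend on their probes, so these levels give no order of abundance.

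Among the 5 brightest C/D box probesets was Snord14e, a U14 copy inside the heat shock gene Hspa8, with means of 16.02 in KO (SD 0.64, n = 4) and 16.41 in WT (SD 0.23, n = 5). Snord61 inside Rbmx, Snord13, Snord16a inside Rpl4 and Snord72 inside Rpl37 followed, with means over all arrays of 13.56, 13.24, 13.13 and 13.02. The 4 brightest H/ACA box probesets were Snora31 inside Tpt1 (12.98), Snora68 (11.74), Snora73b (11.29) and Snora7a inside Rpl32 (10.43). At the other end, Snord64, from the imprinted Snhg14 locus, Snord110 inside Nop56 and Snora35, from the brain-expressed serotonin receptor gene Htr2c, were above background in no array. Snord85 exceeded it in 2 arrays.

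**Figure D1:**
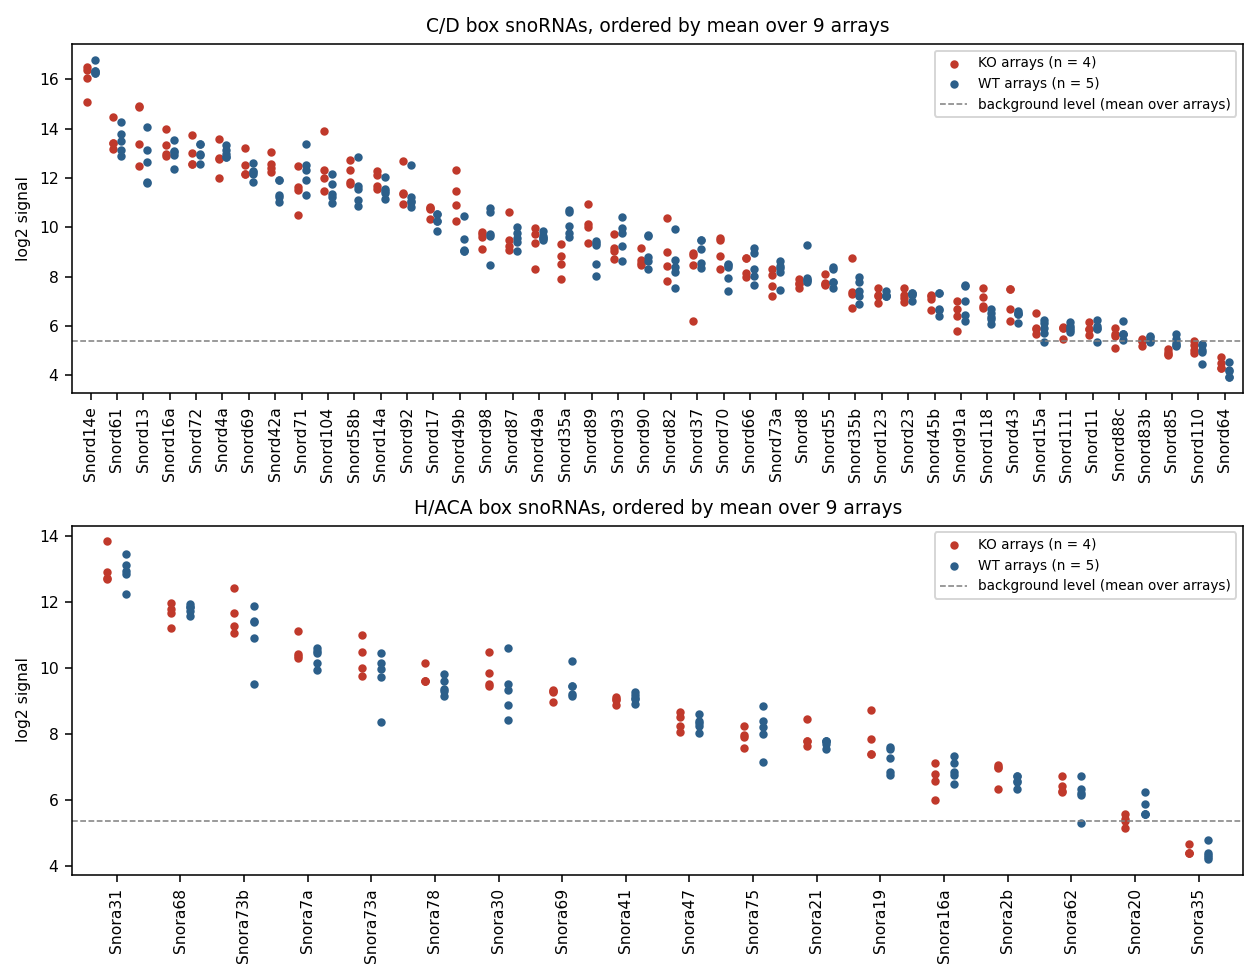
Log2 signal of each of the 62 snoRNA genes (y axis) in the 4 KO and 5 WT arrays, 1 point per array, ordered by the mean over 9 arrays (x axis) within the C/D box (top) and H/ACA box (bottom) classes. The dashed line is the mean background level, 5.37, and 58 genes have a mean above it.

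The snoRNA signals varied more between mice of a group than those of most genes. The SD within groups had a median of 0.45 over the 58 snoRNAs above background, 0.49 for C/D box and 0.34 for H/ACA box genes. It was 0.20 over all 16023 genes above background, 0.18 over protein-coding genes, 0.35 over microRNA genes and 0.50 over small nuclear RNA genes. The largest was that of Snord13 (1.07), and the next were Snord82 (0.97) and Snord37 (0.94). Among the steadiest in WT were Snord123, with 7.20 to 7.40 over the 5 arrays, and Snora41, inside the elongation factor gene Eef1b2, with 8.92 to 9.29.

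KO replicate 1 had the single highest signal of the 9 arrays for 26 of the 58 snoRNAs above background (44.8%) and the lowest for 10 (17.2%). Over all 16023 genes above background it was the highest for 27.1% and the lowest for 23.0%. Averaged over the C/D box genes, its signals lay 0.36 above the mean of the arrays, while the other arrays lay between -0.18 and 0.17. Over all genes above background, KO replicate 1 lay 0.03 above. Averaged over the H/ACA box genes it lay 0.29 above, and WT replicate 5 lay -0.24 from the mean. The median deviations over those genes were 0.18 for KO replicate 1 and -0.02 for WT replicate 5. WT replicate 5 was the lowest array for the near-identical copies Snora73a and Snora73b, which are counted separately in that average. The C/D box averages were 0.06 in KO (SD 0.21, n = 4) and -0.05 in WT (SD 0.15, n = 5). For H/ACA box genes they were 0.08 in KO (SD 0.15) and -0.06 in WT (SD 0.11). In both classes the group means lay closer together than 1 SD of the KO mice, and the groups overlapped. Against 1 SD of the WT mice that held for C/D box genes but not for H/ACA box genes.

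**Figure D2:**
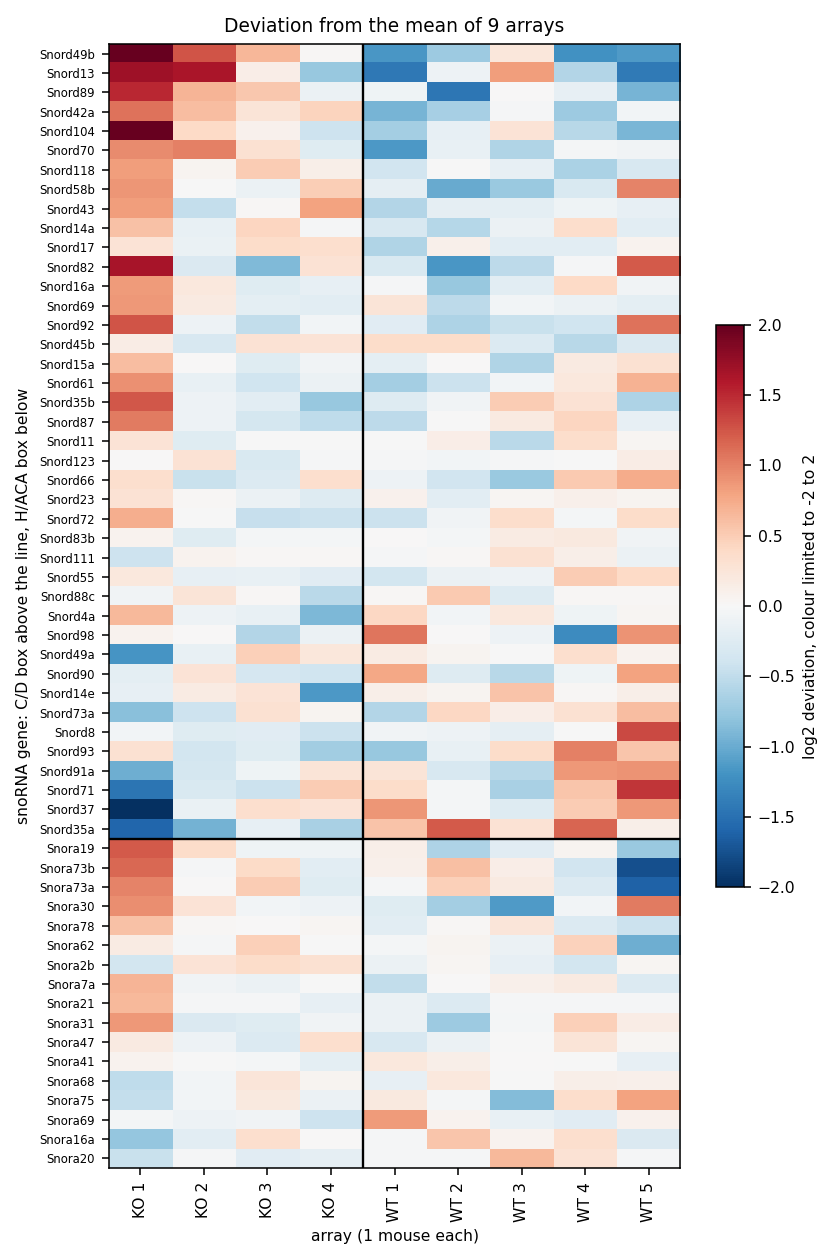
Deviation of each array's log2 signal from the gene's mean over 9 arrays, for the 58 snoRNAs above background (rows, ordered by the difference between KO and WT within each class) and the 9 arrays (columns). Colours are limited to deviations of -2 to 2. KO replicate 1 holds the highest value of 26 genes, and WT replicate 5 is the lowest for Snora73a and Snora73b.

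No snoRNA passed the test between KO and WT. With limma fitted over all 30142 genes, 0 of 62 had a Benjamini-Hochberg adjusted p under 0.05, and the smallest was 0.786. Over all genes 0.00332% passed, which is Abi1 alone. At an unadjusted p under 0.05 there were 9 snoRNAs (14.5%), 6 with a higher and 3 with a lower mean in KO, against 5.01% of all genes, 3.82% higher and 1.19% lower. They were 8 of 44 C/D box genes and 1 of 18 H/ACA box genes. Among genes above background, 8 of 58 snoRNAs (13.8%) had such a p, 6 higher and 2 lower, against 6.93% of all such genes, 5.01% higher and 1.92% lower.

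The median difference, KO minus WT, was 0.03 on the log2 scale for C/D box genes, with 23 higher and 21 lower means, and 0.16 for H/ACA box genes, with 12 higher and 6 lower. Over all genes it was 0.03, with 64.2% of means higher in KO. Among genes above background it was 0.01 for C/D box (21 higher, 20 lower) and 0.20 for H/ACA box genes (11 higher, 6 lower). Over all genes above background it was 0.02, with 54.4% of means higher. The H/ACA box median over all 18 genes rests on KO replicate 1: without that array the value was 0.02. The C/D box median was then -0.12 and the median over all genes 0.007. The typical size of a difference, the median without regard to sign, was 0.29 for the snoRNAs and 0.08 for all genes. Among genes above background it was 0.29 for the snoRNAs, 0.11 for all genes and 0.20 for small nuclear RNA genes. The precision was low for many: the 95% interval of the difference lay within 1 log2 unit either way for 37 of 62 snoRNAs (23 of 44 C/D box and 14 of 18 H/ACA box), against 95.5% of all genes. Among genes above background it was 33 of 58 snoRNAs (56.9%), against 91.9% of all genes and 57.2% of small nuclear RNA genes.

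**Figure D3:**
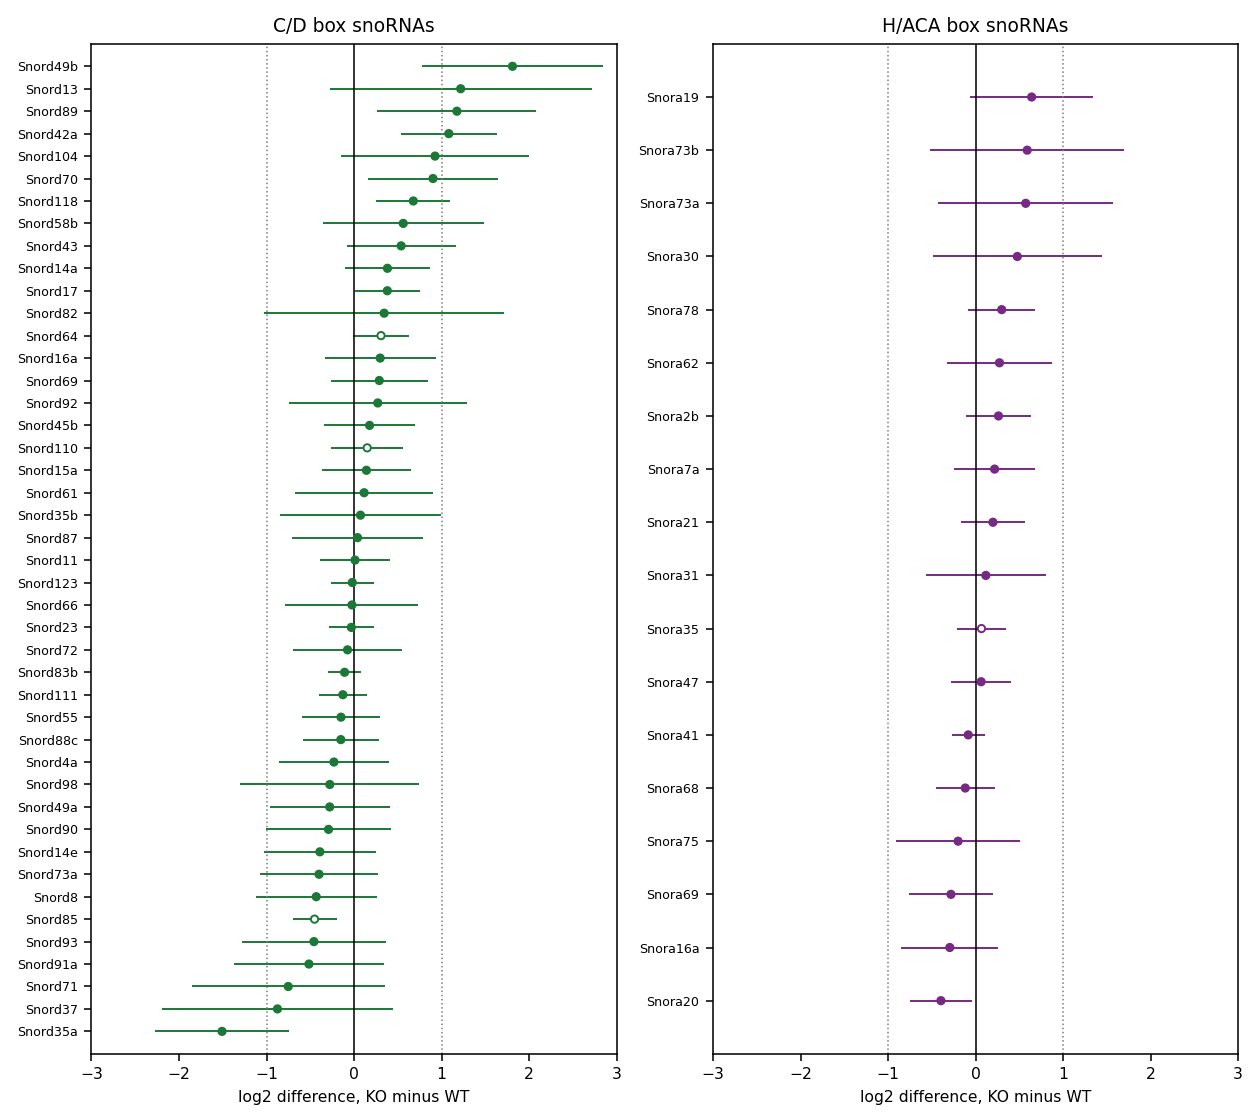
Difference in log2 signal, KO minus WT (x axis), with its 95% interval from limma, for each C/D box (left) and H/ACA box (right) snoRNA. Open circles are genes at or below background and dotted lines mark 1 log2 unit either way. No difference passed an adjusted p of 0.05, and 37 of the 62 intervals lie within the dotted lines.

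Among the snoRNAs that act in processing of the ribosomal RNA precursor, 6 of 9 listed were measured and 0 passed the test, with 5 means higher and 1 lower in KO. Snord118 (U8), which is needed for the large-subunit RNAs and has a transcript of its own, had signals of 7.52, 6.74, 7.19 and 6.80 in KO and 6.30, 6.68, 6.52, 6.06 and 6.37 in WT. All 4 KO arrays were above all 5 WT arrays, by a narrow gap. The difference was 0.68 ± 0.18 (SE; limma adjusted p = 0.786). A second probeset named Snord118 lay near background and differed by 0.28. Its groups overlapped, with 4.70 to 6.15 in KO and 4.71 to 5.22 in WT.

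Snord13 (U13), an independently transcribed snoRNA that works on the small-subunit RNA, had the widest spread. Its signals were 14.94, 14.87, 13.38 and 12.48 in KO and 11.81, 13.14, 14.07, 12.66 and 11.82 in WT. KO replicates 1 and 2 were above all WT arrays and the other two lay among them, and the difference was 1.22 ± 0.65 (SE; limma adjusted p = 0.786). The neutrophil gene S100a8 was also highest in those 2 arrays, at 12.58 and 10.87, with 6.52 in KO replicate 3, 7.48 in KO replicate 4 and a WT range of 4.86 to 8.83. Its part in the Snord13 values was not tested.

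U17, which acts in cleavage of the small-subunit precursor, is represented by the near-identical copies Snora73a and Snora73b, whose probes may share signal. Snora73b had signals of 12.44, 11.27, 11.68 and 11.08 in KO and 11.39, 11.89, 11.42, 10.91 and 9.53 in WT. The groups overlapped, with KO replicate 1 highest and WT replicate 5 lowest, and the difference was 0.59 ± 0.49 (SE). Without WT replicate 5 it was 0.215. Without both arrays it was -0.06 for Snora73b and 0.00 for Snora73a. The U14 copies had differences of 0.38 ± 0.21 (SE) for Snord14a inside Rps13 and -0.39 ± 0.28 (SE) for Snord14e, whose lowest signal was 15.09 in KO replicate 4. Without that array the Snord14e difference was -0.08.

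Of the C/D box guides with higher means in KO, Snord42a was the most separated. It lies inside the ribosomal protein gene Rpl23a. Its signals were 13.05, 12.58, 12.23 and 12.42 in KO and 11.04, 11.30, 11.94, 11.25 and 11.91 in WT, so the groups did not overlap. The KO mean was 2.12-fold the WT mean on the linear scale (log2 difference 1.08 ± 0.24, SE; limma adjusted p = 0.786). The exact two-sided permutation p was 0.00794, the smallest that splits of these arrays into 4 and 5 can give, before any adjustment over the genes.

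Snord49b, inside the noncoding gene 2410006H16Rik, had the largest difference of the 62. Its signals were 12.31, 11.48, 10.90 and 10.25 in KO and 9.06, 9.51, 10.45, 9.02 and 9.09 in WT. Only KO replicate 4 lay within the WT range, below WT replicate 3. The KO mean was 3.50-fold the WT mean (log2 difference 1.81 ± 0.45, SE; limma adjusted p = 0.786).

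Snord89, a C/D box RNA with no host gene in the annotation, had signals of 10.96, 10.14, 10.00 and 9.35 in KO and 9.38, 8.02, 9.46, 9.30 and 8.53 in WT. KO replicate 4 lay among the WT values, and the difference was 1.17 ± 0.40 (SE; limma adjusted p = 0.786). The other 2 with a higher mean and an unadjusted p under 0.05 were Snord70, inside the C/D core gene Nop58 (0.90 ± 0.32, SE), and Snord17, inside Snx5 (0.38 ± 0.16, SE). Both had overlapping groups and were taken up for their p-values, outside the naming rule.

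Among those with lower means in KO, Snord35a stood farthest from 0. It is 1 of the snoRNAs of the ribosomal protein gene Rpl13a, a group known from the response to lipid stress, and the only one of the 4 listed that was measured singly. Its signals were 7.89, 8.53, 9.31 and 8.82 in KO and 10.04, 10.70, 9.76, 10.64 and 9.59 in WT. Every KO array was below every WT array. The WT mean was 2.85-fold the KO mean (log2 difference -1.51 ± 0.33, SE; limma adjusted p = 0.786).

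Snord37, which lies inside the elongation factor gene Eef2, had signals of 6.19, 8.48, 8.94 and 8.88 in KO and 9.49, 8.57, 8.35, 9.11 and 9.47 in WT. KO replicate 1 lay far below the rest and the groups otherwise overlapped. The difference was -0.88 ± 0.58 (SE), and -0.23 without that array. Snord71, inside Ap1g1 and the overlapping gene Gm17344, had a difference of -0.75 ± 0.48 (SE), or -0.41 without KO replicate 1. The U6 guide Snord8, 1 of 6 listed that was measured, had a difference of -0.43 ± 0.30 (SE), or -0.15 without WT replicate 5.

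Snord85 and Snora20 also had groups that did not overlap, with lower means in KO, but both lay near background. Snord85, named for that separation and not by the rule, had 4.86, 4.83, 5.06 and 4.93 in KO and 5.17, 5.29, 5.23, 5.69 and 5.48 in WT. Snora20, inside the chaperonin gene Tcp1, had 5.15, 5.57, 5.38 and 5.42 in KO and 5.58, 5.58, 6.25, 5.89 and 5.58 in WT. Their differences were -0.45 ± 0.11 (SE) and -0.40 ± 0.16 (SE), and each gap between the groups was small against the scale of these signals. Counted over all 62, groups did not overlap for 2 higher (Snord42a and Snord118) and 3 lower genes, against 0.68% and 0.176% of all genes. Above background it was 2 higher and 2 lower of 58, against 0.936% and 0.268%.

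**Figure D4:**
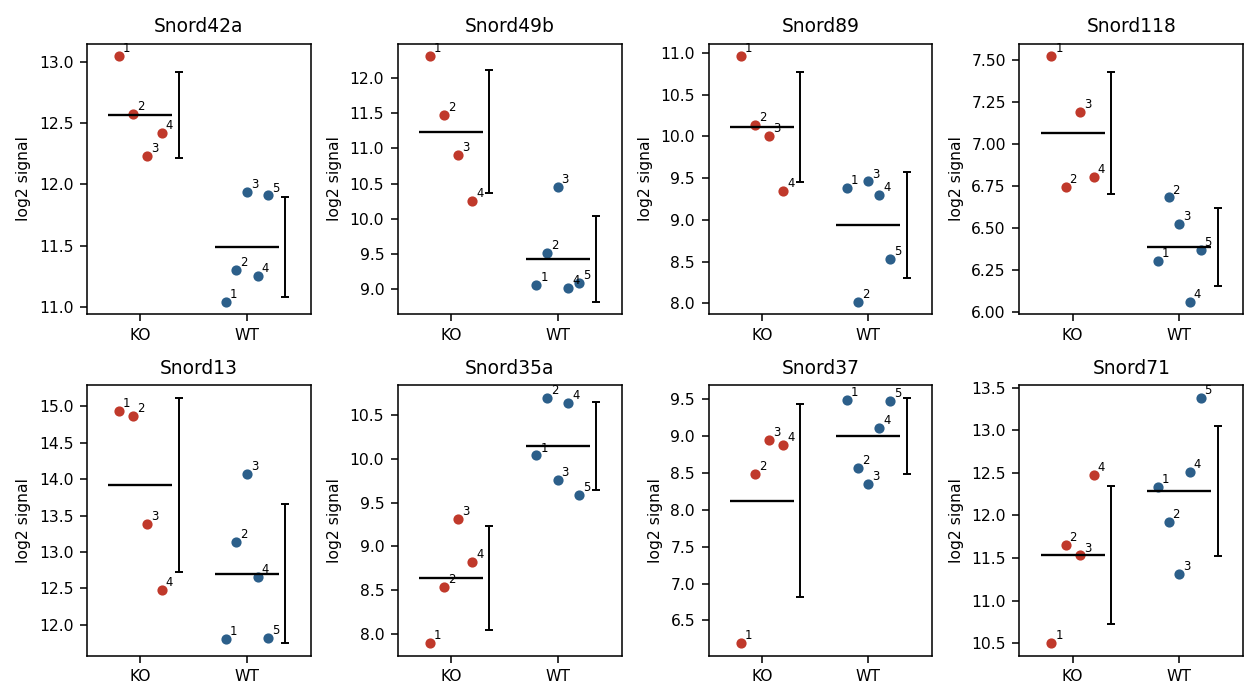
Log2 signal (y axis, separate scale in each panel) of 8 C/D box snoRNAs in KO and WT arrays. Points are arrays with their replicate number, horizontal lines are group means and bars are 1 SD. Snord42a, Snord118 and Snord35a do not overlap between groups, and KO replicate 1 has the lowest value for Snord37 (6.19).

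The H/ACA box genes with the smallest p among those with higher means were Snora19 inside Eif3a, Snora78, Snora2b inside Kansl2 and Snora73a. Snora19 had signals of 8.72, 7.86, 7.41 and 7.41 in KO and 7.61, 6.87, 7.27, 7.55 and 6.75 in WT. Its difference was 0.64 ± 0.31 (SE), and 0.35 without KO replicate 1, which was the highest array. Snora78 differed by 0.30 ± 0.17 (SE) and Snora2b by 0.26 ± 0.16 (SE). Without KO replicate 1 these values were 0.16 and 0.43. Besides Snora20, those with lower means were Snora16a inside Snhg12 (-0.30 ± 0.24, SE), Snora69 inside Rpl39 (-0.28 ± 0.21, SE) and Snora41 (-0.08 ± 0.08, SE). With 1 array left out, Snora16a was -0.09 without KO replicate 1, Snora69 -0.10 without WT replicate 1 and Snora41 -0.03 without KO replicate 4. None of these 8 passed the test.

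The host genes were compared with their snoRNAs by RefSeq position, without regard to strand. Of the 62 snoRNAs, 53 lay inside 1 gene, 45 inside a protein-coding and 8 inside a noncoding one, with 18 inside ribosomal protein genes. Of the others, 6 lay inside overlapping genes and 3 (Snord13, Snord118 and Snord89) inside none. Of the single hosts, the 25 measured by a probeset of their own had differences from -0.35 to 0.37, with a median size of 0.04, 12 higher and 13 lower means and none past the adjusted threshold. Their median SD within groups was 0.09. These hosts include Htr2c, Snhg14 and Snhg18, which lay below background. Nop58, for example, differed by -0.03 while its intronic Snord70 differed by 0.90, and Eef2 by -0.10 (limma, SE 0.18) while Snord37 differed by -0.88. Both of these snoRNAs were named for their p-values. Other hosts and snoRNAs differed alike, such as Rc3h2 by -0.295 and its Snord90 by -0.292. Rpl23a, Rpl13a and 2410006H16Rik, the hosts of Snord42a, Snord35a and Snord49b, had no probeset of their own here.

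Members of 1 host could be compared with each other in 6 hosts that held 2 measured snoRNAs. This comparison was chosen after the values were seen. In each array the log2 signal of one was subtracted from that of the other, and the groups were compared by exact two-sided permutation with Benjamini-Hochberg adjustment over the 6 pairs. Such a ratio shows unequal behaviour of the pair and not which of them differs.

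For Snora73a and Snora73b of Snhg3 the ratio lay between -1.45 and -1.16 in all 9 arrays, and its KO minus WT difference was -0.02 (exact permutation p = 0.825, adjusted 0.825). The 2 signals moved together even in WT replicate 5, where both were lowest. Probes of these near-identical copies may share signal, so the steady ratio does not show that the RNAs themselves behaved alike. For Snord42a and Snord4a of Rpl23a the ratio was -0.54 to 0.40 in KO and -2.30 to -1.05 in WT, a difference of 1.31 with no overlap (exact permutation p = 0.00794, adjusted 0.0476). Snord4a itself differed by -0.23 ± 0.27 (SE).

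For Snord49a and Snord49b the ratio was -3.98 to -0.52 in KO and -0.95 to 0.82 in WT, a difference of -2.09 (exact permutation p = 0.0317, adjusted 0.0476). Snord49a itself had 8.33, 9.35, 9.98 and 9.73 in KO and 9.66, 9.55, 9.50, 9.84 and 9.58 in WT, so that KO replicate 1 was lowest for Snord49a and highest for Snord49b. The pairs in Nop58 (Snord11 and Snord70) and Rpl3 (Snord43 and Snord83b) had differences of -0.89 and 0.65 (exact permutation adjusted p = 0.0476 for each), but Snord11 and Snord83b lie near background. For Snora75 and Snord82 of Ncl the difference was -0.54 (exact permutation p = 0.5, adjusted 0.6).

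None of the 4 pair calls held when any 1 array was left out, with adjusted p from 0.0536 to 0.134 for those pairs. With fewer arrays the smallest exact p rises to 0.0179 without a KO array and 0.0286 without a WT array. The Snord42a and Snord4a difference stayed between 1.10 and 1.44, and the Snord49a and Snord49b difference between -2.54 and -1.39, the latter bound without KO replicate 1. Those of the Nop58 and Rpl3 pairs stayed between -1.14 and -0.64 and between 0.48 and 0.84.

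**Figure D5:**
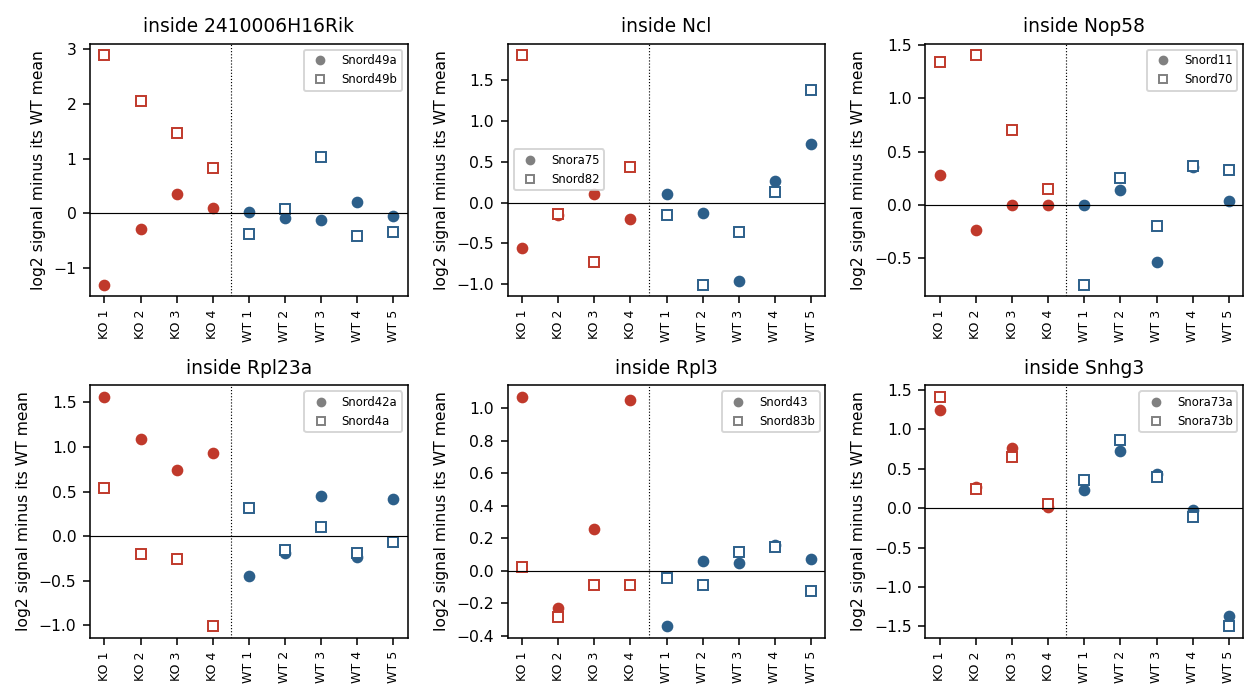
Log2 signal minus the gene's own WT mean (y axis) in each array (x axis) for the 6 pairs of snoRNAs inside 1 host gene, filled circles for the first and open squares for the second. KO arrays are red and WT arrays blue. Snora73a and Snora73b, whose probes may share signal, follow each other in all 9 arrays, and Snord49a and Snord49b lie apart in KO replicate 1.

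Transcripts for the core proteins of the snoRNA particles had differences from -0.21 to 0.24. Of 4 C/D core genes, 2 were measured and 0 passed the test: the methyltransferase gene Fbl had -0.21 ± 0.18 (SE) and Nop58 -0.03 ± 0.14 (SE). Of 4 H/ACA core genes, all 4 were measured and 0 passed, with -0.17 for the pseudouridine synthase gene Dkc1, 0.24 for Nop10, 0.04 for Nhp2 and -0.07 for Gar1. Fbl was lowest in KO replicate 1, at 14.97 against 15.40 to 15.93 in the other arrays.

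Of 10 particle assembly genes, 10 were measured and 0 passed, with 4 higher and 6 lower means. The H/ACA chaperone gene Shq1 had the lowest difference, -0.57 ± 0.23 (SE), with 8.55 in KO replicate 1, 9.24 to 9.60 in KO replicates 2 to 4 and a WT range of 9.40 to 10.04. Of 15 ribosome biogenesis genes, 15 were measured and 0 passed, with 6 higher and 9 lower means, from -0.41 for the polymerase I subunit gene Polr1b to 0.20 for Myc. Nucleolin (Ncl) and Npm1 differed by -0.00 and 0.03.

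Of 21 noncoding snoRNA host genes, 9 were measured, 6 of them above background, and 0 passed, with 8 higher means and 1 lower. Snhg9, which overlaps the Snora78 locus, had signals of 11.84, 10.46, 10.21 and 10.08 in KO and 9.44, 9.90, 10.15, 9.83 and 9.60 in WT. KO replicate 1 was the highest of the 9 and KO replicate 4 lay below WT replicate 3. The difference was 0.86 ± 0.35 (SE; limma adjusted p = 0.786), and Snora78 was also highest in KO replicate 1, at 10.17.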

How the data were processed

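Affymetrix arrays were run on LSK cells of 4 KO and 5 WT mice. Per the labels' protocols, 5 ng of total RNA per sample was preamplified and labelled with biotin. The deposited values, 1 table of 72688 probesets, were read as log2 signals summarised by the authors. Partek 6.6 is named in the submitters' processing notes. For log base, background correction and normalization, the steps were not given in the sources used here. The values run from 1.84 to 19.45, and folds rest on reading them as log2.

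Symbols came from the platform annotation, updated to RefSeq (GRCm38.p6). Of 66 snoRNA probesets with 1 symbol, the brightest stood for each of 62 genes. The groups were compared in R 4.3.3 by limma 3.58.1, using lmFit and eBayes with Benjamini-Hochberg adjustment over 30142 genes and a threshold of 0.05. Single values were compared by exact two-sided permutation over all splits of the arrays. The test was checked on simulated data. Precision is limited by the number of arrays.

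The members and lists were chosen with earlier results of these data known. Named by rule were, among snoRNAs above background, the 5 brightest C/D and 4 brightest H/ACA box genes, the 4 per class and direction with the smallest p, the 2 per class with the largest and the smallest WT spread, and the measured genes of the lists on processing, Rpl13a, U6 guides and the imprinted loci. Other snoRNAs in the text were named after their values were seen. Alternatives were quantile normalization, median centring, leaving out dim genes, averaging probesets, limma with trend and robust fitting, leaving out arrays, a replicate block and other background percentiles. Apart from the RefSeq promoter windows, gene positions are not printed, since the array's genome build was not named in these sources.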

Additional observations from a re-analysis of the deposited data

Results flagged for a closer look

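The 31 snoRNAs named by the rule and the averages of both classes were examined in KO and in WT, 66 groups in all. In 8 of them 1 array lay far from the others of its group by Dixon's criterion. Chance flags about 1 in 20 groups, a rate for groups not chosen by their values, whereas some of these snoRNAs were named for their spread or their p. In 4 of the 8 groups the array was KO replicate 1. It had the lowest signal of the KO group for Snord37 (6.19, others 8.48 to 8.94) and Snora2b (6.34, others 6.97 to 7.07), and the highest for Snora78 (10.17, others 9.60 to 9.62) and Snora7a (11.12, others 10.31 to 10.42). WT replicate 5 was the highest of the WT group for the U6 guide Snord8 (9.28, others 7.78 to 7.95) and for Snord123 (7.40, others 7.20 to 7.24). WT replicate 1 was the highest for Snora69 (10.23, others 9.15 to 9.46), and WT replicate 3 for Snord14e (16.80, others 16.25 to 16.35).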

How the results depend on the processing

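No snoRNA passed an adjusted p of 0.05 under any of the 16 settings, and 0.665 was the smallest for a named snoRNA. The number with an unadjusted p under 0.05 was 6 to 11 when 1 array was left out (6 without KO replicate 1) and 8 to 11 otherwise. The share of all genes with such a p is given above for the main fit alone. Whether the counts in the other settings are unusual is therefore not shown. Among those picked by such a p in the main fit, Snord42a, Snord35a, Snord49b and Snord118 had it in all 16 settings. Snord85 had it in all 15 in which it was tested, Snord89 in 14, Snord70 in 12, Snora20 in 11 and Snord17 in 6. Over the settings that left out 1 array, the C/D box median ran from -0.12 to 0.10 and the H/ACA box median from 0.02 to 0.23, and without both KO replicate 1 and WT replicate 5 the H/ACA box median was 0.018. Direction was kept in every setting by 24 of 31 named snoRNAs. With 1 array left out, the others ranged from -0.15 to 0.25 (Snora31), -0.22 to 0.029 (Snora68), -0.17 to 0.30 (Snord61), -0.33 to 0.063 (Snord72), -0.12 to 0.079 (Snord123), 0.21 to 0.805 (Snora73b) and 0.029 to 0.30 (Snora7a). Without both arrays, Snora31 was -0.098, Snora68 0.042, Snora73b -0.059, Snora7a -0.016 and Snord123 0.011, and with quantile normalization Snord123 was 0.021. The pair difference of Snora73a and Snora73b was 0.020 with quantile normalization, 0.063 without both arrays and -0.059 to 0.031 with 1 left out. That of Snora75 and Snord82 ran from -1.01 to 0.064 with 1 left out. The causes were not tested. Same-numbered deviations from the group means correlated at -0.137, 0.138, -0.011 and 0.231, and 2 of 4 numbers matched best. So few values cannot show whether replicate numbers pair the arrays. With the replicate block, 0 snoRNAs passed the adjusted threshold and 10 had an unadjusted p under 0.05, again without a share over all genes. The medians were then 0.02 (C/D box) and 0.12 (H/ACA box), Snord123 was 0.015 and Snord72 was 0.010. WT replicate 5 has no KO partner in that block, so the block's differences equal those without WT replicate 5. For the differences, the block is not a separate check.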
